A study of Mus musculus with 8 samples.

Results

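The smooth muscle contractile programme was examined as 35 genes, taken as the probe sets whose gene symbol in the array's platform table was one of a named list, with the probe set of highest mean over the 8 arrays where a gene had several. All 35 genes were found among 22184 genes with a probe set of their own, and all 35 passed the filter on dim signal that left 16638 genes in the tests. Smooth muscle cells of the aortic wall contract when calcium and calmodulin activate myosin light chain kinase, which phosphorylates the regulatory light chain of smooth muscle myosin so that it pulls on alpha actin filaments. Myosin phosphatase removes that phosphate, and nitric oxide acting through cyclic GMP promotes its activity. Transcription of many of the contractile genes is driven by serum response factor, which binds CArG boxes, and its coactivator myocardin.

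RNA came from the aorta of newborn mouse pups (age p0, strain background albino C57BL/6J), either with a lysyl oxidase (LOX) knockout, called KO, or wild type, called WT. Lox encodes the enzyme that begins the crosslinking of elastin and collagen in the vessel wall. The 4 groups were KO ascending, WT ascending, KO descending and WT descending aorta, each with 2 Affymetrix arrays, and each array held RNA pooled from 8 pups of like genotype. The ascending piece began at the aortic valve and ended at the ductus arteriosus, and the descending piece is labelled as running between vena cava and diaphragm. The sources used here do not say how the Lox allele was made. Pools are separate biological replicates by label, so spread between pups within a pool was not measured, and n = 2 pools per group throughout. The sample titles do not say whether ascending and descending pools came from the same pups. The main fit treated all arrays as independent, also where segments or genotypes were averaged. Values are log2 signals normalized by the authors, and a difference of 1 is a 2-fold change. The signal of one probe set cannot be compared with that of another, so each gene is compared only with itself across groups.

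The targeted gene checked the labels. Lox read 8.87 and 8.74 in KO ascending against 11.47 and 11.60 in WT ascending arrays, and 8.56 and 8.51 in KO descending against 11.41 and 11.24 in WT descending arrays. All 4 KO arrays were lower, and the position of this probe set in relation to the deletion was not analysed here. The 2 arrays of a group correlated at r = 0.991 to 0.994 over all genes (genes are not independent replicates). The members varied little between arrays of a group, with a median pooled SD of 0.0909 against 0.127 over all genes tested. Flna had the smallest SD (0.0293), and Des (0.367) and Pln (0.504) had the largest.

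Markers of other cell types were read on the same arrays. None of the 114 marker entries measured in 12 lists had a mean over the 8 arrays under the dim level. That level is the 25th percentile of the gene means (4.11 log2), so lying above it does not show that a transcript was present. Single arrays could read lower, such as 3.31 for Retnlg in WT ascending replicate 2. Between KO and WT, averaged over segments, 7 of 12 macrophage and neutrophil markers and all 8 of 8 liver and plasma protein markers were higher in KO, while 5 of 12 endothelial and 5 of 8 fat markers were lower (1 endothelial marker, Flt1, was higher). Over all genes tested 6.21% were higher and 5.22% lower in the same comparison. Skeletal muscle markers differed within groups, with summed levels (log2 of the sum of linear signals) of 9.77 and 10.74 in KO ascending, 9.55 and 11.12 in WT ascending, 11.89 and 10.59 in KO descending, and 10.32 and 10.45 in WT descending arrays. The part of these cells in the results below was not tested. In bulk RNA, fewer smooth muscle cells and less RNA per cell cannot be told apart.

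The RefSeq promoter table (build GRCm38.p6) held 29 of the 35 genes. A CArG box was scored only as an exact CCWWWWWWGG, where W is A or T. It was found on either strand, in the 250 bases before a gene's start, for Srf, Myl9, Myl6, Vcl and Filip1l. These are 5 of the 29, or 17.2%, against 1.62% of all 27025 genes in the table. Some genes have more than 1 start in it, and any of them counted. Near matches, such as ccctatatgg in the window of Acta2, did not count, so a gene without an exact box may still hold one. The 3 members that changed in both segments (Ppp1r14a, Mustn1 and Pdlim3), Srf with 2 boxes, and Myl9 with 1 are shown 5′ to 3′ with CArG boxes in capitals. They lie at chr7:29289070-29289319, plus strand (Ppp1r14a), chr14:30879007-30879256, plus strand (Mustn1), chr8:45885237-45885486, plus strand (Pdlim3), chr17:46556163-46556412, minus strand (Srf) and chr2:156775214-156775463, plus strand (Myl9).
Ppp1r14a: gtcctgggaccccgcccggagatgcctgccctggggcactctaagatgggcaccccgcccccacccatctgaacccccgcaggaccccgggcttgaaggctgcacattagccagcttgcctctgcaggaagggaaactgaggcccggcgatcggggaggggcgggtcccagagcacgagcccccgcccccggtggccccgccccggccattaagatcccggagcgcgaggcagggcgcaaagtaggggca
Mustn1: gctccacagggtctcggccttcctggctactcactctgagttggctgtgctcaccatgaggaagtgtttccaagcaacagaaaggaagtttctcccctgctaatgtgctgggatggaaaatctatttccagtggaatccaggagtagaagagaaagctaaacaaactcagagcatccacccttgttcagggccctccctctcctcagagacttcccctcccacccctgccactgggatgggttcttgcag
Pdlim3: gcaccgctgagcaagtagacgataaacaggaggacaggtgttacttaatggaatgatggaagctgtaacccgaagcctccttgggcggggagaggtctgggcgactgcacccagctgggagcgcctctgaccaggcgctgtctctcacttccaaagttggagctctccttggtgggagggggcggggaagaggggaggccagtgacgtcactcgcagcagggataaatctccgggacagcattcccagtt
Srf: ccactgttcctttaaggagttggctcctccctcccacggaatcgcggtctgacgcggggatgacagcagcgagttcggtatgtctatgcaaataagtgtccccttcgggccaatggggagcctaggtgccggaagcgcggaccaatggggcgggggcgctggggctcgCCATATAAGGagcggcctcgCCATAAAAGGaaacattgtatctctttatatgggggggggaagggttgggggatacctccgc
Myl9: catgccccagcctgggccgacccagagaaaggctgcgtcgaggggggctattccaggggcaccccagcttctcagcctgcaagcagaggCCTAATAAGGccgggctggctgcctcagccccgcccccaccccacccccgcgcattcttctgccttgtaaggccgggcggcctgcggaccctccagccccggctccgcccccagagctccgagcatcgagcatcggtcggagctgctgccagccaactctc
The boxes in Srf began 82 and 62 bases before its start, and that in Myl9 161 bases before. No exact box stood in this window of Ppp1r14a, Mustn1 or Pdlim3, which says only that these letters are not there. A match is a stretch of sequence, not a measured binding site.

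The first question was whether the programme as a group differed without lysyl oxidase. In the ascending aorta 1 of 35 members rose and 2 fell in KO, and in the descending aorta again 1 rose and 2 fell (limma, adjusted p under 0.05 over all genes). The same test called 2.73% of all genes in the ascending aorta (1.54% higher, 1.19% lower) and 2.28% in the descending aorta (1.46% higher, 0.823% lower). The median difference of the members was -0.05 log2 in ascending and -0.05 in descending aorta, beside 0.01 and -0.01 over all genes tested. The arrays of the genotypes did not overlap for 8 members that were higher and 13 that were lower in KO ascending aorta, against 49.5% of all genes in either direction (25.6% higher, 23.9% lower). In descending aorta they did not overlap for 10 higher and 12 lower members, against 51.1% of all genes (25.6% higher, 25.5% lower). Averaged over both segments (4 KO against 4 WT arrays), 3 of 35 members rose and 2 fell, where 11.4% of all genes were called (6.21% higher, 5.22% lower). All 4 KO arrays were above all 4 WT arrays for 5 members and below them for 2, against 17% of all genes (8.87% higher, 8.13% lower).

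The averaged difference was under 0.3 log2 (1.23-fold) in size for 30 of 35 members, beside 83.7% of all genes tested. The KO and WT comparisons in the 2 segments use different arrays, though the pups may be the same. Of the members, 15 lay above 0 in both, 17 below 0 in both and 3 on opposite sides, and across the 35 members the 2 sets of differences had a Pearson correlation of 0.803, beside 0.597 over all genes. These points share the arrays of each comparison and are not independent. The 0.803 rests largely on the members with the largest differences in size in both segments. These were Ppp1r14a (1.16 in ascending, 0.87 in descending aorta) and Mustn1 (-0.92 and -0.78). A correlation without them was not computed, so the value does not show that the other members moved alike.

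**Figure D1:**
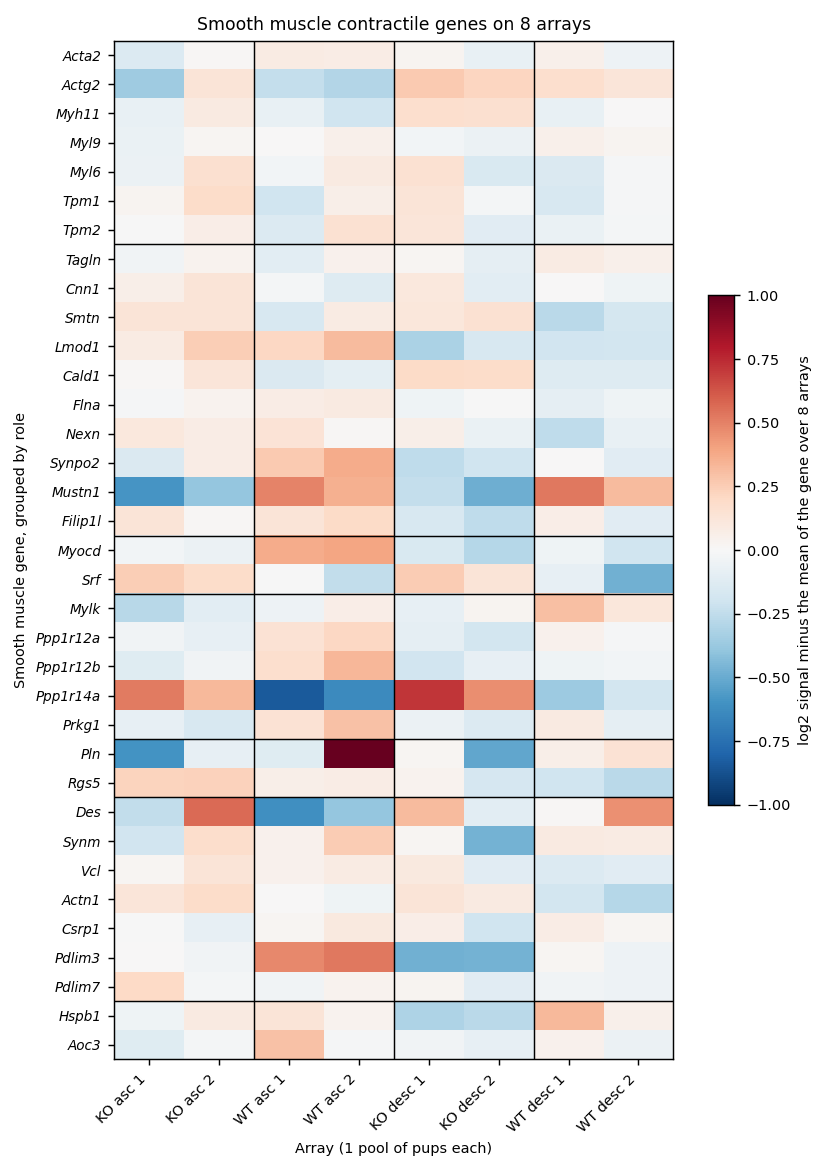
Log2 signal of the 35 smooth muscle genes (rows, grouped by role) on the 8 arrays (columns, KO left of WT within each segment), minus each gene's mean over the 8 arrays. Red is above and blue below that mean, with values beyond 1 in the end colour; Ppp1r14a is red on all 4 KO arrays and Mustn1 blue, while Acta2, Myl9 and Flna are pale throughout.

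Genes of myosin phosphorylation held the largest rise of the programme. Ppp1r14a encodes CPI-17, which inhibits myosin phosphatase once protein kinase C has phosphorylated it. It read 8.98 and 8.78 in KO ascending against 7.62 and 7.82 in WT ascending arrays, and 9.17 and 8.92 in KO descending against 8.09 and 8.27 in WT descending arrays. All 4 KO arrays stood above all 4 WT arrays. Ppp1r14a rose by 1.16 log2 in ascending (2.24-fold, SE 0.14, adjusted p = 0.00859) and by 0.87 in descending aorta (1.82-fold, SE 0.14, adjusted p = 0.0269), and by 1.01 averaged over both (2.02-fold, SE 0.10, adjusted p = 0.00131). The averaged call held with each array left out (adjusted p at most 0.00982). The ascending call ended without KO ascending replicate 1 (adjusted p = 0.0517), and the descending call ended without any 1 of the 4 descending arrays (KO or WT, adjusted p = 0.0558 to 0.175).

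The other genes of this role lay lower in KO without passing the test. Ppp1r12b, a regulatory subunit of myosin phosphatase, read 7.98 and 8.06 in KO ascending and 8.27 and 8.42 in WT ascending arrays, with 7.91 and 8.01 in KO descending and 8.05 and 8.07 in WT descending arrays (averaged difference -0.21, adjusted p = 0.106). Within each segment its KO arrays were below the WT arrays. Ppp1r12a, the main targeting subunit (MYPT1), differed by -0.24 in ascending and -0.15 in descending aorta, and its 4 KO arrays lay below its 4 WT arrays (averaged -0.19, adjusted p = 0.114). Prkg1, the cyclic GMP-dependent kinase of relaxation, differed by -0.34 and -0.10 (averaged adjusted p = 0.114). Mylk, the light chain kinase, differed by -0.20 and -0.23 (averaged adjusted p = 0.138). Of the 5 genes of this role, 5 had an unadjusted p under 0.05 in the averaged comparison, as had 27.6% of all genes, and 1 passed after adjustment, as did 11.4% of all genes.

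**Figure D2:**
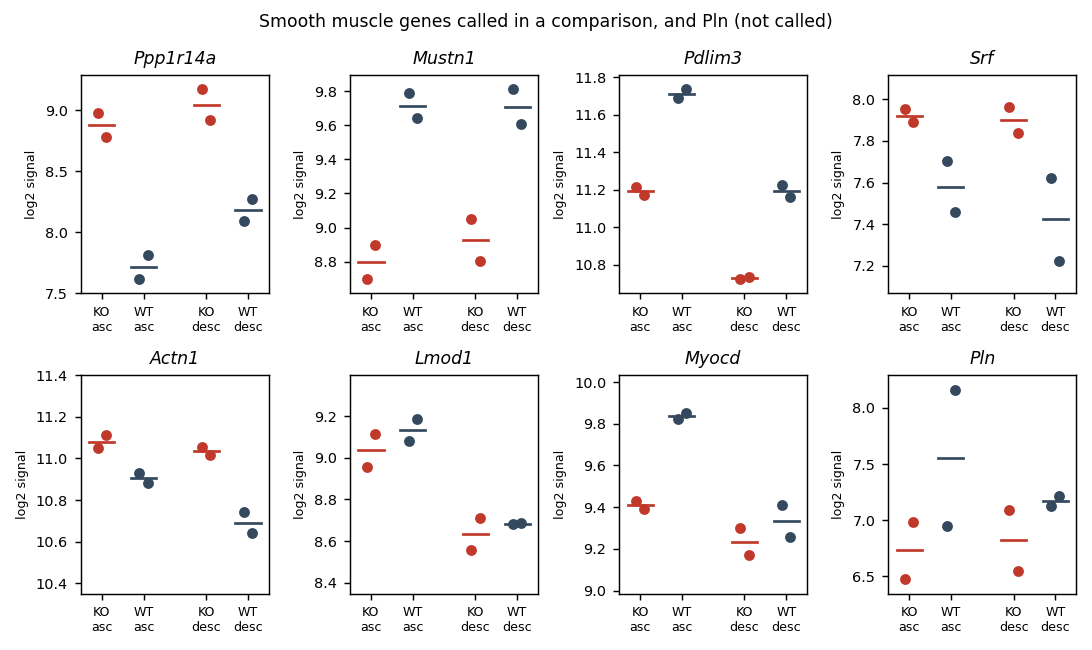
Log2 signal on each array (dots) and the group mean of 2 arrays (lines) for the 7 members called in any comparison and for Pln, which was not, with KO red and WT dark. Ppp1r14a, Srf and Actn1 sit higher and Mustn1 lower on every KO array than on any WT array, Pdlim3 differs by genotype and by segment, and 1 WT ascending array of Pln reads 8.16.

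The largest fall of the programme was that of Mustn1, which was grouped here with proteins that bind and regulate actin filaments but is not known as one. Mustn1 encodes a small protein of the developing musculoskeletal system that is also abundant in smooth muscle. It read 8.70 and 8.90 in KO ascending against 9.79 and 9.64 in WT ascending arrays, and 9.05 and 8.80 in KO descending against 9.81 and 9.60 in WT descending arrays. No KO array reached the lowest WT array. Mustn1 fell by 0.92 log2 in ascending (SE 0.13, adjusted p = 0.0164) and by 0.78 in descending aorta (SE 0.13, adjusted p = 0.0327), and by 0.85 averaged over both (1.8-fold lower, SE 0.10, adjusted p = 0.00249). The averaged call held with each array left out (adjusted p at most 0.0146). The ascending call ended without KO ascending replicate 1 (adjusted p = 0.0943) and without WT ascending replicates 1 and 2 (0.0793 and 0.0667), and the descending call without any 1 of the 4 descending arrays (0.0735 to 0.2).

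Cald1 and Smtn lay on the other side. Cald1, caldesmon, which restrains actomyosin ATPase activity, read 10.43 and 10.54 in KO ascending and 10.27 and 10.33 in WT ascending, and 10.62 and 10.60 in KO descending and 10.29 and 10.30 in WT descending arrays. Smtn, smoothelin, a marker of contractile smooth muscle, read 9.26 and 9.26 in KO ascending and 8.98 and 9.22 in WT ascending, and 9.25 and 9.28 in KO descending and 8.87 and 8.96 in WT descending arrays. For both genes all 4 KO arrays exceeded all 4 WT arrays, yet neither passed (averaged 0.25, adjusted p = 0.051, and 0.26, adjusted p = 0.0712). Synpo2, synaptopodin 2 of the dense body, read 8.46 and 8.68 in KO ascending and 8.87 and 8.98 in WT ascending, and 8.35 and 8.40 in KO descending and 8.61 and 8.49 in WT descending arrays. Its KO arrays were below WT within each segment (averaged -0.26, adjusted p = 0.0722).

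The remaining actin regulators differed less. Tagln (SM22, an actin-bundling marker of smooth muscle) differed by -0.03 averaged over segments, with a 95% interval of -0.20 to 0.13, and Cnn1 (calponin, which binds actin) by 0.09 (-0.08 to 0.27). Lmod1, leiomodin, which nucleates actin filaments, differed by -0.07 (adjusted p = 0.595), Nexn, nexilin, by 0.09 (0.523), Filip1l by -0.14 (0.3) and the crosslinker Flna, filamin A, by -0.01 (0.937). Between KO and WT 1 of the 10 genes grouped here was called, the fall of Mustn1, in each segment and in the average, where 2.73% (ascending), 2.28% (descending) and 11.4% (averaged) of all genes were called.

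Of the dense body, adhesion and intermediate filament genes, Pdlim3 fell in both segments. Pdlim3 encodes ALP, a PDZ and LIM domain protein that binds alpha-actinin at muscle Z-lines. It read 11.21 and 11.17 in KO ascending against 11.69 and 11.74 in WT ascending arrays, and 10.73 and 10.73 in KO descending against 11.23 and 11.16 in WT descending arrays. The replicate arrays were close, and KO ascending overlapped WT descending, so that each segment had its own step between genotypes. Pdlim3 fell by 0.52 log2 in ascending (SE 0.10, adjusted p = 0.0312), by 0.46 in descending (SE 0.10, adjusted p = 0.0479) and by 0.49 averaged over both (1.41-fold lower, SE 0.07, adjusted p = 0.00505). With each array left out the averaged call held (adjusted p at most 0.0273), while the call within a segment ended without any 1 of the 8 arrays (adjusted p = 0.051 to 0.141 in ascending and 0.0696 to 0.237 in descending aorta).

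Actn1, an alpha-actinin that anchors actin filaments in dense bodies and adhesions, read 11.05 and 11.11 in KO ascending and 10.93 and 10.88 in WT ascending, and 11.06 and 11.02 in KO descending and 10.74 and 10.64 in WT descending arrays. All 4 KO arrays were above all 4 WT arrays. Actn1 rose by 0.26 averaged over segments (SE 0.07, adjusted p = 0.0472), a call that ended without any 1 of the 8 arrays (0.0864 to 0.127). Des, desmin, the muscle intermediate filament, read 7.06 and 7.87 in KO ascending and 6.69 and 6.92 in WT ascending, and 7.62 and 7.21 in KO descending and 7.32 and 7.76 in WT descending arrays. Its replicates differed by as much as its groups (averaged 0.26, adjusted p = 0.416). In each of the 4 groups the array with the higher Des also had the higher skeletal and the higher cardiac muscle marker sum, whose part in Des was not tested. Vcl, vinculin of adhesion plaques, differed by 0.06 averaged over segments, the LIM proteins Csrp1 by -0.11 and Pdlim7 by 0.05, and Synm, synemin, an intermediate filament partner of desmin, by -0.23, and none of these passed (adjusted p = 0.667, 0.45, 0.757 and 0.286).

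The 2 transcription factors of the programme lay on opposite sides. Srf, serum response factor itself, whose promoter is shown above, read 7.95 and 7.89 in KO ascending against 7.70 and 7.46 in WT ascending arrays, and 7.96 and 7.84 in KO descending against 7.62 and 7.23 in WT descending arrays. Every KO array stood above every WT array. Srf rose by 0.41 log2 averaged over segments (1.33-fold, SE 0.11, adjusted p = 0.0433), and within a segment it did not pass (ascending 0.34, adjusted p = 0.265; descending 0.48, adjusted p = 0.143). The averaged call of Srf held without WT descending replicate 1 (adjusted p = 0.0351) and ended without any 1 of the other 7 arrays (0.051 to 0.125). Myocd, myocardin, read 9.43 and 9.39 in KO ascending against 9.82 and 9.85 in WT ascending arrays, and 9.30 and 9.17 in KO descending against 9.41 and 9.26 in WT descending arrays. The WT ascending arrays were apart from the other 3 groups (ascending difference -0.43, adjusted p = 0.0727, and descending -0.10, adjusted p = 0.667).

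Among 28 listed regulators of smooth muscle transcription, 27 were tested, and averaged over segments 2 rose and 3 fell in KO, where 6.21% of all genes were higher and 5.22% lower, with a median of -0.09 log2 (all genes 0.00364). Fhl2, a LIM-only protein that binds serum response factor, read 8.17 and 8.11 in KO ascending against 7.35 and 7.45 in WT ascending arrays, and 9.14 and 8.94 in KO descending against 8.40 and 8.25 in WT descending arrays. It rose by 0.74 in ascending (SE 0.11, adjusted p = 0.0183) and by 0.72 in descending aorta (SE 0.11, adjusted p = 0.0273). This was the 1 call of the list in each segment, where 2.73% (ascending) and 2.28% (descending) of all genes were called. In the averaged comparison the muscle factor Mef2a (-0.40, adjusted p = 0.0145), the myocardin-related coactivator Mrtfb (-0.33, 0.0253) and Klf4, which represses contractile genes (-0.30, 0.0391; the fifth by p, added after its value was seen), were lower. Heyl, a Notch target, was higher (0.37, 0.0291). The coactivator Crebbp differed by -0.25 (adjusted p = 0.0564).

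The contractile filaments themselves showed no called difference between KO and WT. Acta2, smooth muscle alpha actin, read 12.42 and 12.56 in KO ascending and 12.63 and 12.63 in WT ascending, and 12.58 and 12.48 in KO descending and 12.60 and 12.50 in WT descending arrays. In the ascending aorta both KO arrays lay below the WT arrays, by 0.14 on average (adjusted p = 0.518), and in the descending aorta the groups overlapped. The 95% interval of the averaged Acta2 difference was -0.25 to 0.09 log2. Myh11, smooth muscle myosin heavy chain, read 10.67 and 10.83 in KO ascending and 10.67 and 10.55 in WT ascending, and 10.92 and 10.91 in KO descending and 10.67 and 10.75 in WT descending arrays (averaged 0.17, interval -0.00019 to 0.35, adjusted p = 0.182).

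Actg2, the gamma actin of visceral smooth muscle, differed by 0.12 averaged over segments (adjusted p = 0.515), the myosin light chains Myl9 by -0.06 (0.596) and Myl6 by 0.05 (0.796), and the tropomyosins Tpm1 by 0.16 (0.307) and Tpm2 by 0.04 (0.846). limma called 0 of the 7 filament genes in either segment or in the average, and 0 had an unadjusted p under 0.05 in any of these. Over all genes 2.73%, 2.28% and 11.4% were called in ascending, descending and averaged comparisons, and 19.1%, 18.8% and 27.6% had an unadjusted p under 0.05, so few calls among 7 genes are near the background. A test that is not passed does not show equal levels, and the intervals give the differences these arrays allow.

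**Figure D3:**
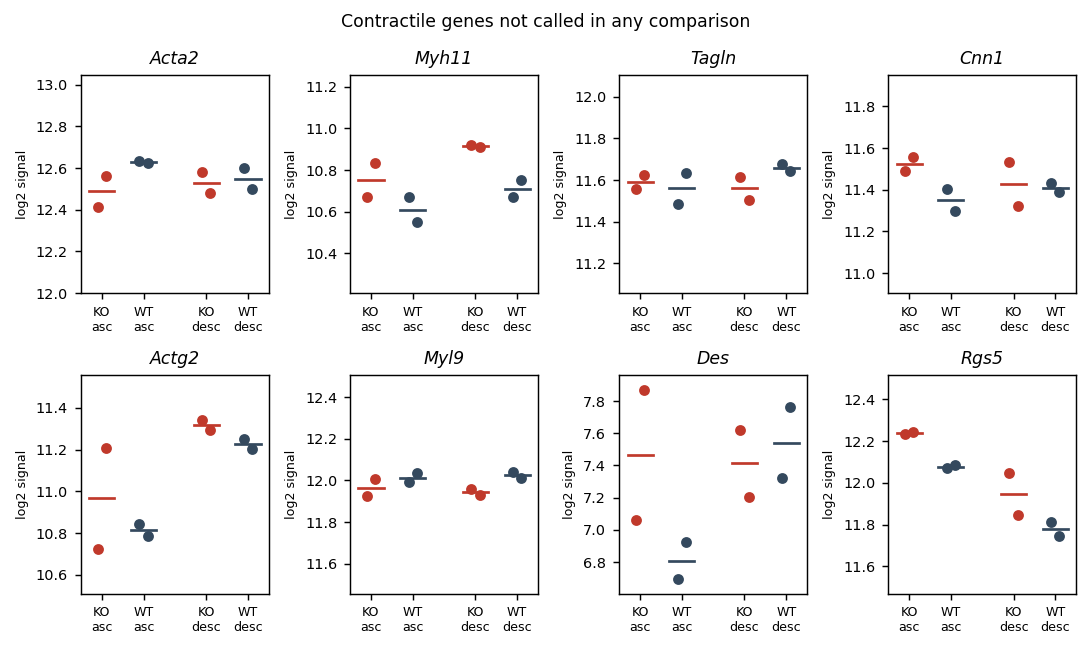
Log2 signal on each array (dots) and the group mean of 2 arrays (lines) for 8 smooth muscle genes called in no comparison, KO red and WT dark, each axis spanning at least 1 log2. Acta2, Tagln, Cnn1 and Myl9 vary little over the 4 groups, and the group means of Myh11 run from 10.61 in WT ascending to 10.91 in KO descending aorta. Actg2 and Rgs5 differ more by segment than by genotype, and Des varies between replicates.

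Pln encodes phospholamban, which restrains calcium uptake into the sarcoplasmic reticulum in cardiac, slow skeletal and smooth muscle. It read 6.48 and 6.99 in KO ascending and 6.95 and 8.16 in WT ascending, and 7.09 and 6.55 in KO descending and 7.13 and 7.22 in WT descending arrays. WT ascending replicate 2 stood apart from the other 7 arrays, and it also had the higher skeletal and cardiac marker sums of its group (11.12 and 12.78, against 9.55 and 12.42 in replicate 1). In each of the 4 groups the array with the higher Pln also had the higher skeletal and cardiac muscle sums, the cardiac sums being 12.57 and 13.07 in KO ascending, 12.42 and 12.78 in WT ascending, 13.16 and 12.67 in KO descending, and 13.12 and 13.41 in WT descending arrays. The part of those markers in Pln was not tested, and its difference did not pass (averaged -0.59, adjusted p = 0.174).

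Rgs5, a regulator of G protein signalling that marks pericytes and arterial smooth muscle, read 12.23 and 12.24 in KO ascending and 12.07 and 12.09 in WT ascending, and 12.05 and 11.85 in KO descending and 11.81 and 11.74 in WT descending arrays (averaged 0.17, adjusted p = 0.196). Its second probe set, dimmer and so not used, differed by 0.37 and passed in a fit over all probe sets tested (adjusted p = 0.0486), where the first had an adjusted p of 0.297, so the 2 probe sets disagree on the call for Rgs5. Hspb1, a small heat shock protein that binds actin, read 9.80 and 9.94 in KO ascending and 9.98 and 9.88 in WT ascending, and 9.54 and 9.58 in KO descending and 10.17 and 9.90 in WT descending arrays. The descending KO arrays were the lowest of the 8 (-0.47, adjusted p = 0.0871). Aoc3, an amine oxidase of the smooth muscle and fat cell surface, differed by -0.13 averaged over segments (adjusted p = 0.387).

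**Figure D4:**
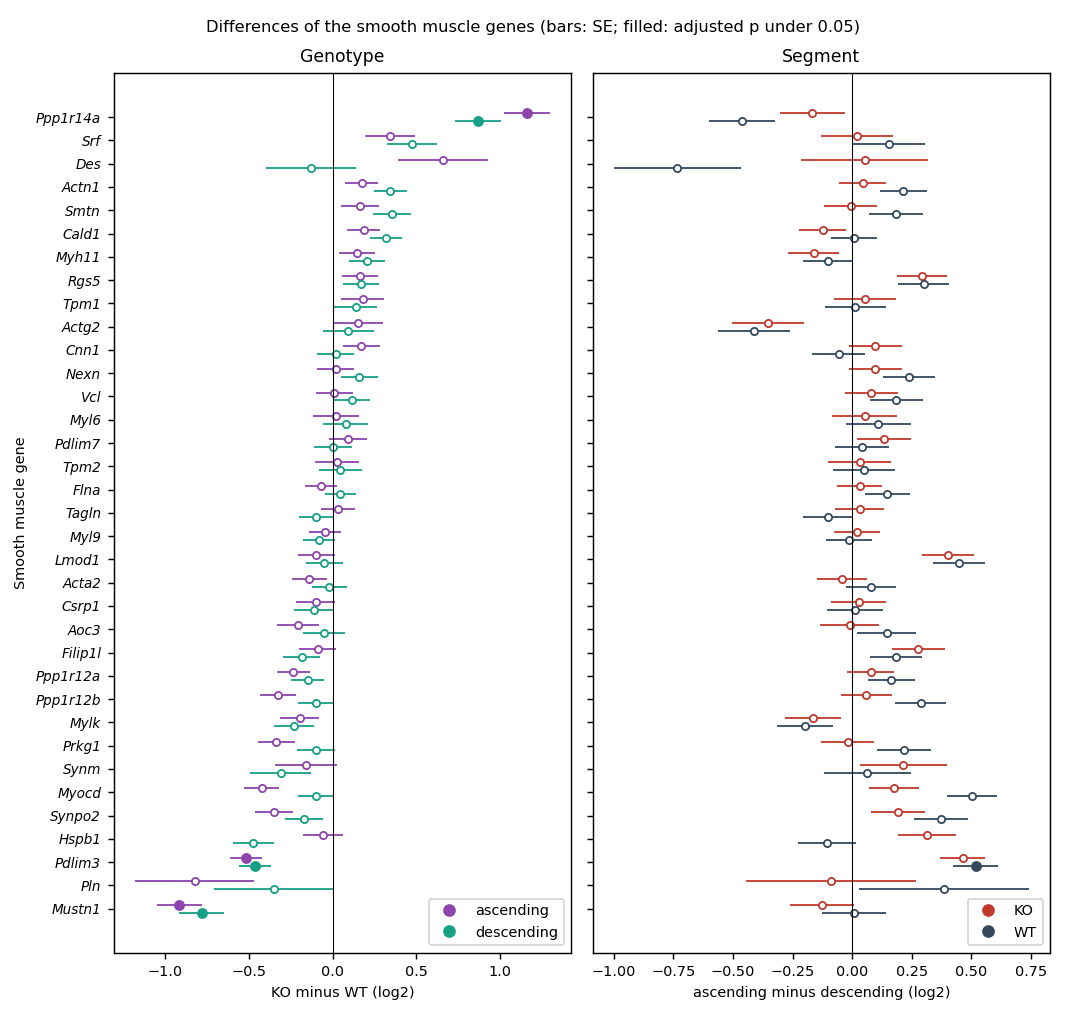
Differences of the 35 members on the log2 scale with their standard errors (bars), KO minus WT in each segment (left) and ascending minus descending in each genotype (right), with filled points at an adjusted p under 0.05. Ppp1r14a stands to the right and Mustn1 and Pdlim3 to the left of 0 in both segments, and Pdlim3 and Lmod1 lie right of 0 between segments in both genotypes.

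Genes of contraction and relaxation signalling that are not in the programme were read from a list of 29, of which 22 were tested. In KO, 2 fell and 0 rose in the ascending aorta, where 1.19% of all genes were lower and 1.54% higher. In the descending aorta 3 fell and 0 rose, where 0.823% of all genes were lower and 1.46% higher. Averaged over segments 7 fell and 1 rose (median -0.15 log2), where 5.22% of all genes were lower and 6.21% higher. Kcnma1, the pore of the large-conductance calcium-activated potassium channel that relaxes smooth muscle, read 5.54 and 5.30 in KO ascending against 6.57 and 6.73 in WT ascending arrays, and 6.00 and 6.19 in KO descending against 7.30 and 7.06 in WT descending arrays. It fell by 1.23 in ascending (SE 0.14, adjusted p = 0.00723) and 1.08 in descending aorta (SE 0.14, adjusted p = 0.0121). Its smooth muscle beta subunit Kcnmb1 rose by 0.44 in the averaged comparison (SE 0.09, adjusted p = 0.0179). These genes of 1 channel had opposite called directions.

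Pde5a and Gucy1a1, of cyclic GMP signalling, fell. Pde5a, the phosphodiesterase that breaks down cyclic GMP, read 9.11 and 9.10 in KO ascending against 9.77 and 9.67 in WT ascending arrays, and 8.71 and 8.80 in KO descending against 9.32 and 9.38 in WT descending arrays. It fell by 0.62 in ascending (SE 0.10, adjusted p = 0.0208) and 0.60 in descending aorta (SE 0.10, adjusted p = 0.0305). Gucy1a1, a subunit of the guanylate cyclase that nitric oxide activates, fell by 0.54 in descending aorta (SE 0.11, adjusted p = 0.0472) and by 0.49 averaged over segments (SE 0.08, adjusted p = 0.00747). Gucy1b1, the other listed subunit of that cyclase (added after its value was seen), did not fall with it. Its group means were 9.77 in KO and 9.72 in WT ascending, and 9.54 in KO and 9.54 in WT descending aorta. Rhoa, a small GTPase that promotes contraction, differed by -0.01 in the averaged comparison (adjusted p = 0.923). Kcnma1, Pde5a and Gucy1a1 are also expressed outside smooth muscle, and endothelial and fat markers moved down with them, as given above, and their part in these genes was not tested.

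**Figure D5:**
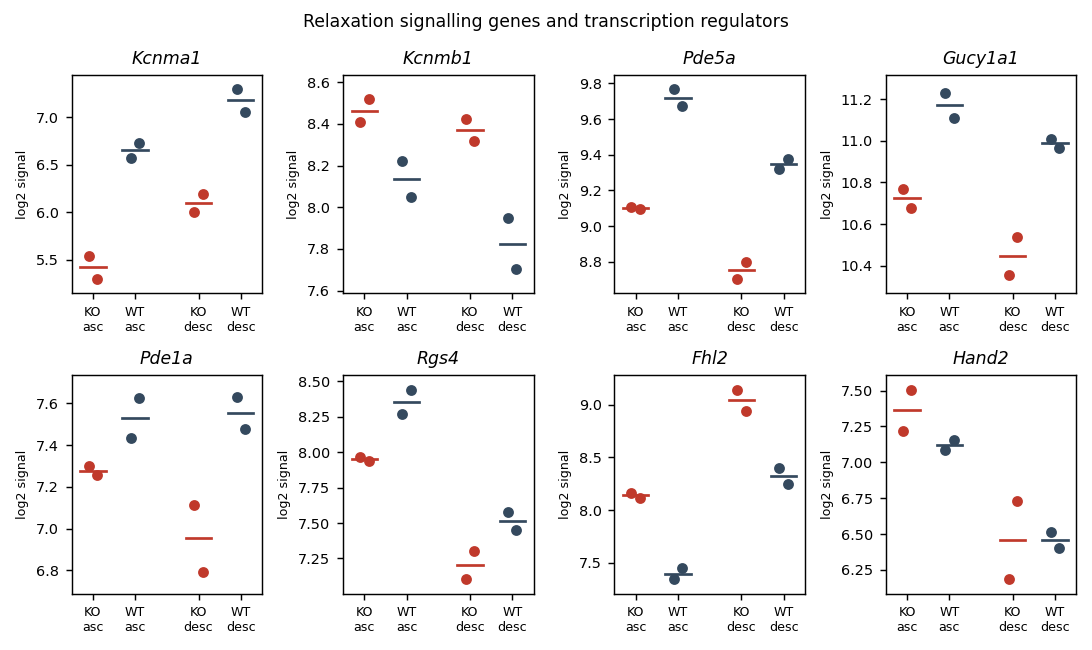
Log2 signal on each array (dots) and the group mean of 2 arrays (lines) for 6 genes of contraction and relaxation signalling and 2 transcription regulators, KO red and WT dark. Kcnma1, Pde5a and Gucy1a1 are lower and Kcnmb1 and Fhl2 higher in KO within each segment, while Rgs4 and Hand2 are higher and Fhl2 lower in ascending than in descending aorta.

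A list of 47 further genes of the actin cytoskeleton and dense body, 44 of them tested, had 5 higher and 2 lower members in KO averaged over segments, with a median of 0.07 log2. In ascending aorta 1 member rose, Hspb7 (0.55, adjusted p = 0.0389), and in descending aorta limma called 0, with 12 at an unadjusted p under 0.05. Over all genes the ascending test called 2.73%, the descending test 2.28% with 18.8% at an unadjusted p under 0.05, and the averaged test 11.4%. By smallest p the averaged calls began with Hspb7, a small heat shock protein of muscle (0.47, adjusted p = 0.00819), Sorbs3, vinexin (-0.38, 0.0243), the intermediate filament Vim, vimentin (-0.32, 0.0251) and the nonmuscle myosin Myh9 (0.34, 0.0342), while Myl12a differed by 0.00392 (0.98). Of 16 markers of synthetic or modulated smooth muscle 12 were tested, and 3 were higher and 2 lower (median 0.18; 11.4% of all genes called). The adhesion molecule Vcam1 (0.44, adjusted p = 0.0258) and the matricellular gene Thbs1 (1.35, 0.00105) were higher, and S100a4 was lower (-0.36, 0.0355). The other lower gene was Klf4, already given above, since it is also in the list of transcription regulators. Myh10 and Tpm4 are likewise also in the cytoskeleton list. Ccl2, a chemokine, was higher (1.44, 0.0159) beside the higher macrophage and neutrophil markers. Mgp, matrix Gla protein, differed by 0.03 (0.845).

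The second question was whether the programme differs along the aorta. Ascending aorta was set against descending aorta, and averaged over genotypes 3 of 35 members were higher in ascending aorta and 0 lower, where 4.07% of all genes were called (1.5% higher, 2.57% lower). Differences of 27 members lay above 0, as did those of 8170 of the 16638 genes tested. The members share the same arrays and are not independent, so the count is only a description. Their median was 0.09 log2, beside -0.0025 over all genes tested. Within WT the median was 0.11 and within KO 0.04. With each gene centred on its mean, the members' median was -0.03 and 0.07 on the KO ascending and 0.02 and -0.11 on the KO descending arrays. On the WT ascending arrays it was 0.02 and 0.08, and on the WT descending arrays 0.0026 and -0.04. KO ascending replicate 1 thus lay below KO descending replicate 1. All 4 ascending arrays were above all 4 descending arrays for 2 members, Lmod1 and Rgs5, and below them for 0, against 7.26% of all genes (3.07% higher, 4.19% lower). Within KO limma called 0 of 35, where it called 1.48% of all genes (0.547% higher, 0.938% lower), with 6 members at an unadjusted p under 0.05, beside 12.1% of all genes. The KO arrays did not overlap for 9 higher and 4 lower members, against 41% of all genes (20.2% higher, 20.8% lower). Within WT, 1 member was called, Pdlim3, where 1.48% of all genes were called (0.511% higher, 0.974% lower). The WT arrays did not overlap for 16 higher and 5 lower members, against 42.4% of all genes (19.8% higher, 22.6% lower). In size 29 of 35 averaged differences were under 0.3 log2, beside 90.3% of all genes.

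Pdlim3 was higher in ascending aorta in both genotypes, as the array values above show, by 0.46 in KO (SE 0.10, adjusted p = 0.0618) and 0.52 in WT (SE 0.10, adjusted p = 0.039), and by 0.49 averaged (1.41-fold, SE 0.07, adjusted p = 0.00527). The averaged call held with each array left out (adjusted p at most 0.0275), and the WT call ended without any 1 of the 8 arrays (0.0619 to 0.221). Lmod1 read 8.96 and 9.12 in KO ascending against 8.56 and 8.71 in KO descending arrays, and 9.08 and 9.19 in WT ascending against 8.68 and 8.69 in WT descending arrays. All 4 ascending arrays exceeded all 4 descending arrays. Lmod1 was higher by 0.43 averaged over genotypes (1.34-fold, SE 0.08, adjusted p = 0.0196), and this call ended without KO ascending replicate 2 (0.0634), WT ascending replicate 2 (0.0626), KO descending replicate 1 (0.0691) or either WT descending array (0.0734 and 0.0679).

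Myocd was higher in ascending aorta by 0.34 averaged over genotypes (SE 0.07, adjusted p = 0.0429), a call that ended without any 1 of the 8 arrays (0.0735 to 0.145). Its KO segments differed by 0.18 (adjusted p = 0.601) and its WT segments by 0.50 (0.0656). Rgs5 was above its descending level on every ascending array (0.30, adjusted p = 0.0712), and its second probe set passed in the fit over all probe sets (0.46, adjusted p = 0.0382). Actg2 read 10.72 and 11.21 in KO ascending against 11.34 and 11.30 in KO descending arrays, and 10.84 and 10.79 in WT ascending against 11.25 and 11.20 in WT descending arrays. KO ascending replicate 2 overlapped the WT descending arrays, and the averaged difference of -0.38 did not pass (adjusted p = 0.102). Ppp1r14a differed by -0.31 (0.137) and Synpo2 by 0.28 (0.106) between segments, and Acta2 by 0.02 (0.948).

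Between segments, averaged over genotypes, 2 of 22 signalling genes were higher and 2 lower in ascending aorta, where 4.07% of all genes were called. Rgs4 (0.79, adjusted p = 0.00149) and Pde5a (0.36, 0.0269) were higher, and Rgs2 (-0.97, 0.0098) and Kcnma1 (-0.60, 0.0111) were lower. Of 27 transcription regulators 2 were higher, Hand2, a factor of the cardiac outflow tract (0.78, adjusted p = 0.011), and Lmcd1 (0.41, 0.0225), and 2 were lower, Fhl2 (-0.91, 0.000689) and the mesenchymal factor Prrx1 (-0.70, 0.00156). Rgs4, Fhl2, Prrx1 and Hspb7 were also called within each genotype, the first by 0.75 in KO and 0.84 in WT. In the wider cytoskeleton list Hspb7 (0.66, 0.00229), Sorbs2 (0.91, 0.00945) and the nonmuscle myosin Myh10 (0.34, 0.0372) were higher and the collagen receptor subunit Itga1 lower (-0.43, 0.0357). Of the synthetic markers 1 of 12, Myh10 again, was called. On the same arrays 6 of 12 endothelial, 6 of 8 fat, 4 of 5 tested nerve and Schwann cell and 2 of 16 cardiac muscle markers were lower in ascending aorta. So were 2 of 9 pericyte markers and 1 of 8 lung markers, with 0 higher in these lists. The fat sum was 11.71 to 11.97 in KO ascending against 12.27 to 12.41 in KO descending arrays, and 12.25 to 12.51 in WT ascending against 12.83 to 12.94 in WT descending arrays. The part of these tissues in the segment differences was not tested.

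Marker lists of other cells are given here by their counts, summed levels and at most their first 3 genes for KO against WT, averaged over segments, where 11.4% of all genes were called. For macrophages and neutrophils, of 12 tested markers 7 were higher and 0 lower in KO, with sums of 12.56 to 12.68 in KO ascending, 11.66 to 11.87 in WT ascending, 12.41 to 12.61 in KO descending and 11.98 to 12.07 in WT descending arrays, and differences (adjusted p) of Ptprc 0.32 (0.324), Cd68 0.57 (0.00734), Csf1r 0.30 (0.0452). For liver and plasma proteins, of 8 tested markers 8 were higher and 0 lower in KO, with sums of 10.26 to 10.36 in KO ascending, 9.85 to 9.85 in WT ascending, 10.57 to 11.86 in KO descending and 8.70 to 9.17 in WT descending arrays, and differences (adjusted p) of Alb 1.54 (0.00587), Afp 1.51 (0.0159), Fgb 1.72 (0.00494). For endothelium, of 12 tested markers 1 was higher and 5 lower in KO, with sums of 12.06 to 12.08 in KO ascending, 12.28 to 12.37 in WT ascending, 12.36 to 12.40 in KO descending and 12.56 to 12.62 in WT descending arrays, and differences (adjusted p) of Pecam1 -0.35 (0.0205), Cdh5 -0.25 (0.0541), Kdr -0.58 (0.0045). The endothelial marker that was higher, named after its value was seen, was Flt1, which read 7.62 and 8.12 in KO ascending against 7.16 and 7.29 in WT ascending arrays, and 8.64 and 8.47 in KO descending against 7.63 and 7.73 in WT descending arrays (0.76, adjusted p = 0.00707). Every macrophage, neutrophil and liver marker that passed was higher in KO. For fat, of 8 tested markers 0 were higher and 5 lower in KO, with sums of 11.71 to 11.97 in KO ascending, 12.25 to 12.51 in WT ascending, 12.27 to 12.41 in KO descending and 12.83 to 12.94 in WT descending arrays, and differences (adjusted p) of Adipoq -1.08 (0.00494), Plin1 -0.52 (0.135), Ucp1 -1.65 (0.0412). For lung, of 8 tested markers 0 were higher and 2 lower in KO, with sums of 8.37 to 8.45 in KO ascending, 8.53 to 9.98 in WT ascending, 8.63 to 8.65 in KO descending and 10.27 to 10.94 in WT descending arrays, and differences (adjusted p) of Sftpc -2.15 (0.00665), Sftpb -0.52 (0.0837), Sftpa1 -0.41 (0.188). Sftpc was high only in WT descending arrays (8.37 and 10.15). It read 4.50 and 4.80 in WT ascending, 4.56 and 4.83 in KO ascending, and 4.74 and 5.07 in KO descending arrays. For fibroblasts and adventitia, of 12 tested markers 1 was higher and 2 lower in KO, with sums of 14.25 to 14.29 in KO ascending, 14.41 to 14.43 in WT ascending, 14.29 to 14.36 in KO descending and 14.42 to 14.44 in WT descending arrays, and differences (adjusted p) of Pdgfra -0.57 (0.0072), Dpt -0.60 (0.00479), Lum -0.06 (0.678). Fat and lung markers that passed were lower in KO, and the fibroblast marker that was higher was Pi16 (0.31, adjusted p = 0.0377, named after its value was seen). For pericytes, of 9 tested markers 2 were higher and 1 lower in KO, with sums of 12.05 to 12.10 in KO ascending, 11.98 to 12.13 in WT ascending, 12.36 to 12.41 in KO descending and 12.21 to 12.24 in WT descending arrays, and differences (adjusted p) of Kcnj8 -0.57 (0.0178), Abcc9 -0.07 (0.55), Cspg4 0.54 (0.0052). Ndufa4l2 was the other pericyte marker that was higher (0.97, adjusted p = 0.00361, likewise). For cardiac muscle, of 16 tested markers 1 was higher and 0 lower in KO, with sums of 12.57 to 13.07 in KO ascending, 12.42 to 12.78 in WT ascending, 12.67 to 13.16 in KO descending and 13.12 to 13.41 in WT descending arrays, and differences (adjusted p) of Myh6 -0.46 (0.404), Myh7 -0.26 (0.159), Tnnt2 -0.23 (0.337). The cardiac marker that was higher, named after its value was seen, was Tnnc1, which read 10.29 and 10.56 in KO ascending against 8.78 and 9.51 in WT ascending arrays, and 10.71 and 10.20 in KO descending against 10.21 and 10.47 in WT descending arrays (0.70, adjusted p = 0.0404). Its descending arrays overlapped between genotypes. For skeletal muscle, of 14 tested markers 0 were higher and 0 lower in KO, with sums of 9.77 to 10.74 in KO ascending, 9.55 to 11.12 in WT ascending, 10.59 to 11.89 in KO descending and 10.32 to 10.45 in WT descending arrays, and differences (adjusted p) of Acta1 0.60 (0.548), Myh3 0.24 (0.435), Myh8 0.41 (0.799). No skeletal muscle marker passed, and its sums overlapped between genotypes. For red cells, of 4 tested markers 0 were higher and 0 lower in KO, with sums of 8.07 to 8.32 in KO ascending, 7.42 to 7.72 in WT ascending, 7.85 to 8.19 in KO descending and 7.76 to 7.997 in WT descending arrays. For thymus and lymphocytes, of 6 tested markers 0 were higher and 0 lower in KO, with sums of 8.03 to 8.25 in KO ascending, 7.94 to 9.36 in WT ascending, 7.92 to 7.97 in KO descending and 7.60 to 7.97 in WT descending arrays, and differences (adjusted p) of Cd3d -0.55 (0.377), Cd3e -0.18 (0.51), Cd3g 0.02 (0.98). For nerve and Schwann cells, of 5 tested markers 0 were higher and 0 lower in KO, with sums of 8.59 to 8.83 in KO ascending, 8.78 to 8.81 in WT ascending, 10.10 to 10.34 in KO descending and 9.84 to 10.23 in WT descending arrays, and differences (adjusted p) of Sox10 -0.03 (0.826). The part of these lists in the differences of the programme was not tested.

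The last question was whether the effect of genotype differed between segments. limma called 0 of 35 members in the interaction, as it called 0% of all genes, and 1 member, Hspb1, had an unadjusted p under 0.05 (0.42, SE 0.17, adjusted p = 0.869), as had 5.6% of all genes. Myocd (-0.33, adjusted p = 0.886) and Des (0.79, 0.895) followed by p. The interaction of Ppp1r14a was 0.29 (0.919), with a 95% interval of -0.15 to 0.74, that of Mustn1 -0.14 (-0.57 to 0.30) and that of Pdlim3 -0.06 (-0.36 to 0.25). These intervals give the range of segment differences that the 8 arrays allow for the called members.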

How the data were processed

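The data were 1 deposited table of log2 expression values for 41345 probe sets on 8 arrays. The submitters' processing notes name RMA and Affymetrix Expression Console as what the authors used, without a version or options. Per the labels' protocols, NuGEN kits amplified the RNA and labelled it with biotin. Array medians lay between 5.11 and 5.19 log2. Of the probe sets 23525 had 1 gene symbol in the platform table, 1810 several and 16010 none. For each of 22184 genes the probe set with the highest mean was used, and a dim filter at the 25th percentile of the means (4.11 log2) left 16638. The members Smtn, Rgs5 and Hspb1 had a second probe set.

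The test was limma (3.58.1, in R 4.3.3), lmFit and eBayes on all 8 arrays together, with a coefficient for each group (residual df 4, prior df 4.51). The 7 contrasts were adjusted by Benjamini-Hochberg over all genes, and a gene at an adjusted p under 0.05 is called, or said to rise or fall. Intervals are 95% intervals from the same fit. The p-values measure spread between pools. The members, their roles, the 16 lists and the tests were chosen with earlier results of these data known. Of 243 list entries 221 matched a gene. Array values are given for every called member and the 3 uncalled members of smallest p in each contrast, and, from each list that is no marker list, values of up to 4 called genes by p and of the uncalled gene with the highest mean. Marker lists have counts, summed levels and those of their first 3 genes that are reported here. Array values of Acta2, Myh11 and Pln were added as a description. Alternatives were the dim filter, the prior, scaling between arrays, the replicate number as a block, other handling of probe sets, and arrays left out. Promoters came from RefSeq, and Actg2, Myh11, Tagln, Myocd, Nexn and Aoc3 had no entry. Python 3.11.15 and matplotlib 3.10.9 made the figures.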

Additional observations from a re-analysis of the deposited data

Results flagged for a closer look

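Flna, filamin A, was marked for a closer look because its KO arrays lay on opposite sides of WT in the 2 segments. It read 10.88 and 10.94 in KO ascending against 10.97 and 10.99 in WT ascending arrays (difference -0.0685), and 10.86 and 10.90 in KO descending against 10.81 and 10.86 in WT descending arrays (0.0461). The gap between both differences did not pass the interaction test (-0.11, SE 0.13, adjusted p = 0.964), and Flna was the member with the smallest spread between replicate arrays.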

How the results depend on the processing

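With 2 arrays per group, few calls held under every alternative. Of 15 calls of 7 members, 4 did, namely Ppp1r14a, Mustn1 and Pdlim3 between KO and WT and Pdlim3 between segments, all averaged, and no call changed sign. Members called were 3 between KO and WT in ascending and 3 in descending aorta, 5 averaged, and between segments 1 in WT, 0 in KO and 3 averaged. Testing all probe sets separately gave 0, 0, 3, 0, 0 and 1, in that order. A trended robust prior gave 4, 7, 13, 4, 3 and 7. No filter on dim genes gave 3, 1, 3, 0, 0 and 2, and a filter at the 50th percentile 4, 4, 10, 2, 1 and 4. Arrays shifted to 1 median gave 2 in WT and 1 in KO between segments, and cyclic loess 2 in WT. Fitting only the arrays compared gave 1, 0, 0 and 0 in the single contrasts. With 1 array left out the counts ranged over 0 to 2 (ascending), 0 to 2 (descending), 3 to 4 (averaged), 0 (WT segments), 0 (KO segments) and 1 to 2 (segments averaged), where the array left alone was taken to vary as the rest do. All 35 members lay above the dim level. The interaction called 0 members under each alternative.

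The replicate block gave 3, 2, 4, 0, 0 and 2. The labels do not say what a replicate number marks, so the numbers were not taken as pairs. Deviations of same-numbered arrays correlated between -0.0952 and 0.126 over genes. The positive values, 0.126 (ascending) and 0.114 (descending), were those between KO and WT of the same segment. These correlations cannot show whether pools shared pups, a litter or a day. Over all genes the calls under the alternatives ran over 39 to 1014 (main 455) in ascending, 20 to 919 (main 380) in descending, 691 to 2604 (main 1902) averaged, 32 to 444 (main 247) and 35 to 430 (main 247) between segments in WT and KO, 349 to 951 (main 677) averaged and 0 to 11 (main 0) in the interaction. The members' median ranged over -0.09 to 0.0021 in ascending and -0.07 to 0.03 in descending KO against WT. Between segments it ranged over 0.06 to 0.15 in WT, -0.02 to 0.13 in KO and 0.05 to 0.11 averaged. The cause of these shifts was not tested.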
